A study of Rattus norvegicus with 46 samples.

Results

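The mitochondrial carrier genes were taken here as all genes whose symbol in the array annotation starts with Slc25a, each represented by its probe set with the highest mean over the 46 arrays. The annotation held 37 such genes, on 42 probe sets, among 14317 genes with a single symbol. Of the 37, 32 passed the filter on low signal and were tested among 9289 genes. Slc25a14, Slc25a21, Slc25a40, Slc25a41 and Slc25a54 did not pass it, with mean levels over the 46 arrays of 5.26, 4.09, 5.24, 5.32 and 3.79 on the log2 scale. The array medians lay between 6.07 and 6.20, so these 5 genes were not well above background on most or all arrays and are not described further.

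The arrays came from the proximal gastrocnemius, a calf muscle, of 23 female Sprague-Dawley rats kept in an experimental intensive care model. All 23 rats were anaesthetised with isoflurane, paralysed with the neuromuscular blocking agent alpha-cobrotoxin and mechanically ventilated, so both legs of every rat carry these treatments and no untreated muscle was analysed here. The windows were 6 h to 4 d with 13 rats, 5 to 8 d with 4 rats and 9 to 14 d with 6 rats. In each rat the left ankle was flexed and extended passively by a lever arm at 13.3 cycles per minute, for 12 h per day (6 h in all at the shortest duration), while its fellow leg received no loading. The comparisons are loading within a rat and duration between rats. Each array is 1 leg, and a rat is named below by the label number of its unloaded leg.

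Carriers of this family are small proteins of the inner mitochondrial membrane that exchange or import metabolites between cytosol and matrix, each with its own substrates. In skeletal muscle the ADP/ATP and phosphate carriers feed and drain ATP synthase, the oxoglutarate and aspartate-glutamate carriers run the malate-aspartate shuttle, and the acylcarnitine carrier brings in fatty acids. Other members import coenzyme A, S-adenosylmethionine, NAD, folate or iron, and a few serve peroxisomes or the outer membrane.

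Promoters of 4 members on which the results below turn are shown first, because they include an ADP/ATP carrier pair with opposite changes and the members with the largest rise and the largest fall. Each is the 300 bases from 250 before to 50 after the transcription start in RefSeq's GRCr8 table, read 5′ to 3′ on the gene's strand. Capitals mark matches to the motifs searched.
Slc25a4: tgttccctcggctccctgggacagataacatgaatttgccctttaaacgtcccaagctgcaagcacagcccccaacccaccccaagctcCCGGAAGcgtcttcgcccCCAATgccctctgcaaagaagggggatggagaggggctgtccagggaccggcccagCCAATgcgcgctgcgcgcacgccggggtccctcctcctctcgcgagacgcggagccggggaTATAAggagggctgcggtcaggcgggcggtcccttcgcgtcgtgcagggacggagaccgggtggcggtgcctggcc
Slc25a5: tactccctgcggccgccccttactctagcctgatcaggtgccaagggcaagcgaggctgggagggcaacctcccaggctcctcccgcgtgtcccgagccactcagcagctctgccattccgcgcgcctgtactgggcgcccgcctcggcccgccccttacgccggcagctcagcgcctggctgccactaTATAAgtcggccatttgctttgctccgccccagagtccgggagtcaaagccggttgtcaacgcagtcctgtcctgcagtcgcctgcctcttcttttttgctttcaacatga
Slc25a16: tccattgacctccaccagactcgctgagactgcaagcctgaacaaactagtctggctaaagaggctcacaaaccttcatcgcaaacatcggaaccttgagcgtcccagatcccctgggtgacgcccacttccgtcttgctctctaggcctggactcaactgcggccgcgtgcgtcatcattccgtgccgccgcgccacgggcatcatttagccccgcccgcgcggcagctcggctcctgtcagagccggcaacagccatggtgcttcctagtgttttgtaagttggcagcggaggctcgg
Slc25a25: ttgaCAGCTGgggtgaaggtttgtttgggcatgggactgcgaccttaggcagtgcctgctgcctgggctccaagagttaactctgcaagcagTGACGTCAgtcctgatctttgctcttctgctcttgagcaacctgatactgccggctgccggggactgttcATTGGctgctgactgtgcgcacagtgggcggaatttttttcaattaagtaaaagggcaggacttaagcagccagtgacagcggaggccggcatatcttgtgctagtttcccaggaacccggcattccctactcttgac
Their positions are chr16:52805271-52805570 on the plus strand, chrX:120897366-120897665 on the plus strand, chr20:25714958-25715257 on the minus strand and chr3:36116532-36116831 on the minus strand. The motifs, each searched on both strands, were AAGGTCA (the half-site of estrogen-related receptors), CCGGAAG (the core of ETS factors), CAGCTG (a myogenic E-box), CCAAT (the CCAAT box), TATAA (the TATA box) and TGACGTCA (the cyclic AMP response element), and none of the matches marked here overlap. The Slc25a4 promoter held CCGGAAG starting 161 bases before the start, CCAAT at 143 and 87 bases before it and TATAA at 26 bases before it. The Slc25a5 promoter held TATAA at 61 bases before the start, and no motif of the 6 matched in the Slc25a16 promoter. The Slc25a25 promoter held CAGCTG at 246, TGACGTCA at 158 and CCAAT on the opposite strand (ATTGG as printed) at 88 bases before the start. Promoters of 32 of the 37 members were in the table. CCAAT was found in 18 of these 32 and in 37.5% of all 33469 promoters, CCGGAAG in 7 and in 8.75%, CAGCTG in 5 and in 15.1%, and TATAA in 4 and in 26.2%. AAGGTCA was in 1 member, Slc25a34, and in 4.61% of all promoters, and TGACGTCA in 1, Slc25a25, and in 1.83%.

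With time under blockade, the carriers moved in both directions in the unloaded legs, and the ADP/ATP carrier typical of muscle and the phosphate carrier were among those that fell. Between 6 h to 4 d and 9 to 14 d, Slc25a16, Slc25a24, Slc25a5, Slc25a37, Slc25a39 and Slc25a27 rose and Slc25a25, Slc25a34, Slc25a30, Slc25a35, Slc25a22, Slc25a3, Slc25a26, Slc25a4, Slc25a11 and Slc25a44 fell (limma, Benjamini-Hochberg adjusted p under 0.05). The calls thus covered 16 of the 32 members, 50%, beside 45.6% of all genes tested, a similar share. By direction, 6 members were higher beside 28.7% of all genes, and 10 were lower beside 16.9%. The median log2 difference was -0.06 over the 32 members and 0.07 over all genes. At 5 to 8 d the unloaded legs had 4 members higher than at 6 h to 4 d (23.6% of all genes) and 6 lower (12.3%), 31.25% of members called beside 35.9% of genes. In the loaded legs the same comparison called 6 members higher (26.9% of all genes) and 7 lower (12.0%), 40.6% beside 39.0%. At 9 to 14 d the loaded legs had 7 higher (2696 of the 9289 genes) and 12 lower (15.2%), 59.4% of members beside 44.2% of genes. All comparisons with 6 h to 4 d share those 13 legs per side, and the 2 legs of a rat share the animal, so they are not independent of each other. The labels also carry date codes that differ between the windows. Of the 16 unloaded calls at 9 to 14 d, 4 passed within date code 3, held by 10 rats and the 1 code found in every window, and 8 passed with the code as a covariate, as detailed for the codes below. The unloaded calls of Slc25a4 and Slc25a3 at 9 to 14 d were lost in both of these settings. These are bulk samples, in which fewer cells of a type and less RNA per cell cannot be told apart.

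**Figure D1:**
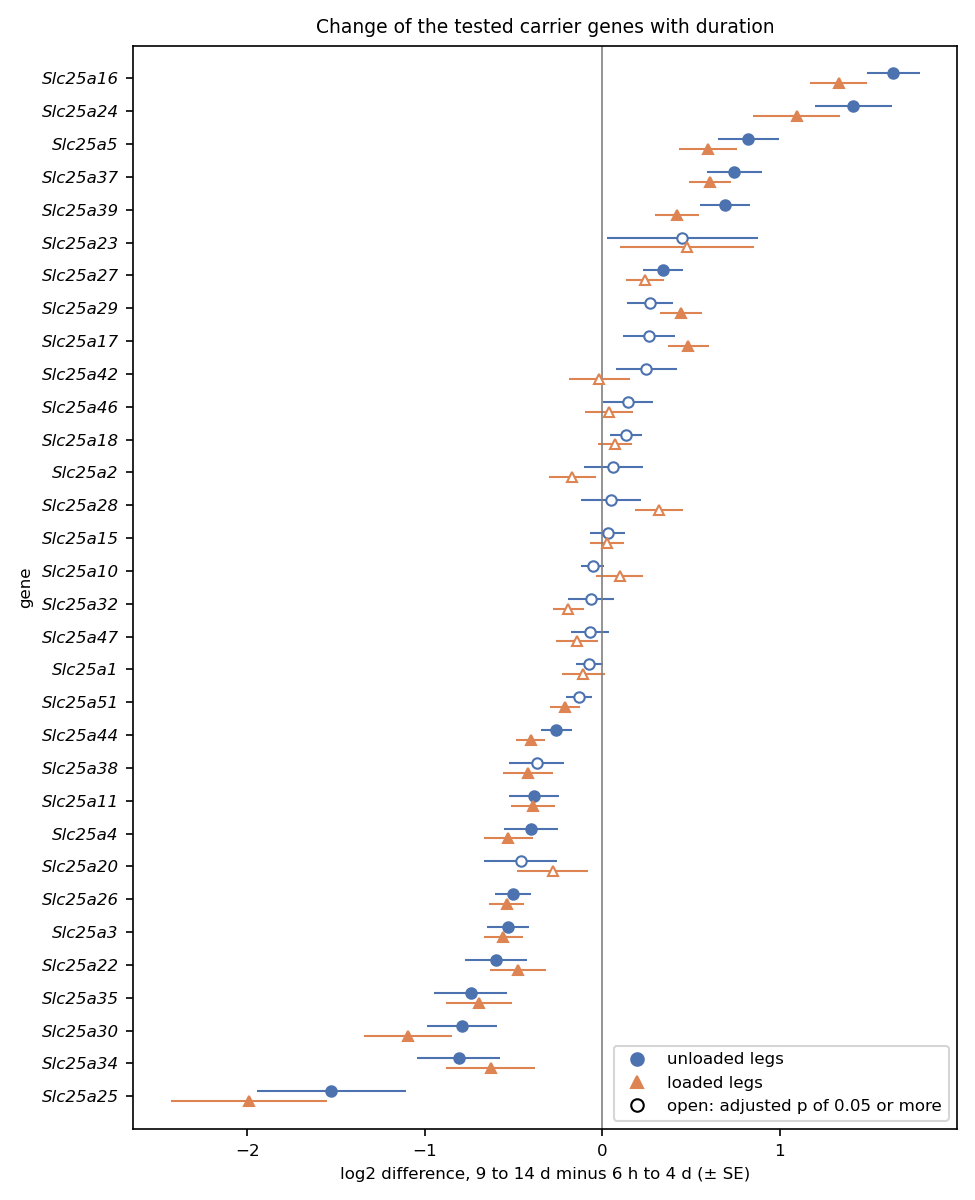
Log2 difference between 9 to 14 d and 6 h to 4 d (horizontal axis, with the standard error) for each of the 32 tested carrier genes (vertical axis), in unloaded legs (circles) and loaded legs (triangles). Filled symbols passed an adjusted p of 0.05; Slc25a16 stands at 1.64 and 1.33 at one end and Slc25a25 at -1.52 and -1.99 at the other.

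Among the carriers of adenine nucleotides and phosphate, 7 were tested. Slc25a4, the ADP/ATP translocase that predominates in striated muscle, ranged in the unloaded legs from 12.34 to 13.23 (median 12.99, n = 13) at 6 h to 4 d on the log2 scale. It was 11.74, 12.32, 12.69 and 12.57 in the 4 rats at 5 to 8 d, and 12.22 to 13.08 (median 12.42, n = 6) at 9 to 14 d. All 4 rats at 5 to 8 d lay below all but 2 of the early rats, whereas the ranges at 6 h to 4 d and 9 to 14 d overlapped widely. The fitted log2 differences from 6 h to 4 d were -0.60 ± 0.17 (SE, adjusted p = 0.00954) and -0.40 ± 0.15 (adjusted p = 0.0328), a 1.32-fold fall at 9 to 14 d. The call at 5 to 8 d was lost without rat 41, and that at 9 to 14 d without rat 45, 47, 49 or 51. In the loaded legs they were -0.57 ± 0.16 and -0.53 ± 0.14 (limma, adjusted p = 0.00659 and 0.00342), the former lost without rat 41.

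Slc25a5, a second ADP/ATP translocase with a wider tissue distribution, moved the other way. Its unloaded level was 9.67 to 10.94 (median 10.32) at 6 h to 4 d, 10.98, 11.04, 10.65 and 10.26 at 5 to 8 d, and 10.87 to 11.59 (median 11.06) at 9 to 14 d. Of the 13 early legs, 1 reached the range of the 9 to 14 d legs. The log2 difference at 9 to 14 d was 0.82 ± 0.17 (SE, 1.77-fold, limma adjusted p = 5.24e-04) in unloaded legs and 0.59 ± 0.16 (adjusted p = 0.00524) in loaded legs, and at 5 to 8 d the unloaded value of 0.43 did not pass (adjusted p = 0.0929). The 2 genes lie on different probe sets, so only the change of their difference within an array is read. In unloaded legs Slc25a4 minus Slc25a5 was 2.02 to 3.28 (mean 2.63 ± 0.38 SD, n = 13) at 6 h to 4 d, 1.60 ± 0.71 (n = 4) at 5 to 8 d and 0.95 to 1.87 (1.41 ± 0.30, n = 6) at 9 to 14 d. In loaded legs it was 2.19 to 3.39 (2.61 ± 0.34), 1.79 ± 0.49 and 0.91 to 2.04 (1.48 ± 0.47). The first and last windows did not overlap in this difference in either leg, although they overlapped in each gene alone.

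Slc25a3, the carrier that supplies phosphate for ATP synthesis, was 12.02 to 12.93 (median 12.73) at 6 h to 4 d in unloaded legs, 12.26, 12.02, 12.03 and 11.92 at 5 to 8 d, and 12.05 to 12.33 (median 12.11) at 9 to 14 d. It fell by 0.62 and 0.53 on the log2 scale in unloaded legs (SE 0.14 and 0.12, limma adjusted p = 0.00141 and 9.44e-04) and by 0.58 and 0.56 in loaded legs (adjusted p = 0.00121 and 3.22e-04). The overlap came from rats 35 and 37, whose unloaded legs stood at 12.08 and 12.02 while the other 11 early rats lay between 12.61 and 12.93. The same 2 rats were at 12.34 and 12.36 for Slc25a4, with the others between 12.90 and 13.23, and at 11.66 and 11.49 for Slc25a11, with the others between 12.11 and 12.72. Their loaded legs stood apart in the same way, at 12.06 and 12.22 for Slc25a3 beside 12.67 to 12.92. Leaving these 2 rats out, the unloaded difference at 9 to 14 d was -0.65 for Slc25a3 and -0.51 for Slc25a4 (limma, adjusted p = 2.45e-07 and 0.00248). The 2 rats were singled out by their low values for these same genes. Larger falls and smaller p-values without them follow from that choice and are no separate test of the falls. The exact duration of each rat within its window is not in the labels used here.

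**Figure D2:**
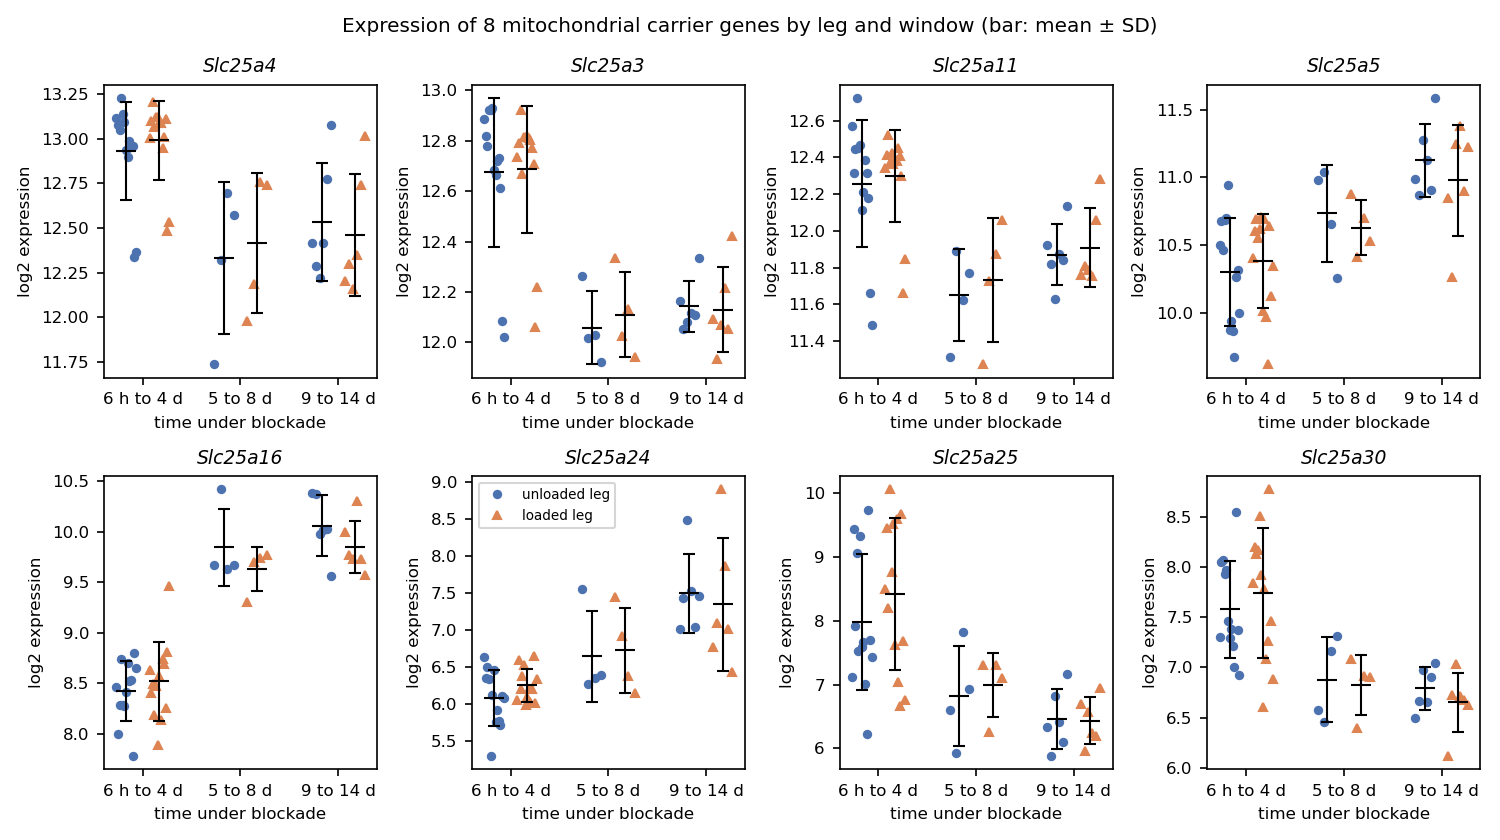
Log2 expression (vertical axes, each with its own range) of 8 carrier genes in every leg by window (horizontal axis), with unloaded legs as circles, loaded legs as triangles and bars for the mean ± SD. Slc25a16 does not overlap between the first and last windows in either leg, and rats 35 and 37 form the 2 low points of Slc25a3, Slc25a4 and Slc25a11 at 6 h to 4 d.

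The calcium-regulated ATP-magnesium/phosphate carriers, which set the adenine nucleotide content of the matrix, each gave a different pattern. Slc25a24 was not clearly above the array medians in the early unloaded legs, at 5.30 to 6.63 (mean 6.08 ± 0.38 SD, n = 13), so no fold is given. It reached 7.01 to 8.49 (median 7.45) at 9 to 14 d, with no overlap. The log2 difference was 1.42 ± 0.22 (SE, limma adjusted p = 1.64e-05) in unloaded legs and 1.10 ± 0.25 (adjusted p = 0.00103) in loaded legs, where the 9 to 14 d values of 6.43 to 8.90 overlapped the early ones. At 5 to 8 d only rat 41 stood high in the unloaded leg, at 7.56 beside 6.26, 6.35 and 6.39. Its other probe set gave a log2 difference of 1.06 ± 0.19 at 9 to 14 d in unloaded legs and 0.90 ± 0.21 in loaded legs.

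Slc25a25 showed the largest fall of any member and the widest spread. Early unloaded legs ranged from 6.22 to 9.73 (median 7.67) and early loaded legs from 6.67 to 10.06 (median 8.49). At 9 to 14 d both legs lay between 5.88 and 7.16. The unloaded legs at 5 to 8 d were 6.60, 5.93, 7.82 and 6.93. The log2 difference at 9 to 14 d was -1.52 ± 0.42 (SE, 2.88-fold lower, limma adjusted p = 0.00525) in unloaded legs and -1.99 ± 0.44 (3.97-fold lower, adjusted p = 8.91e-04) in loaded legs. The late legs reached down to 5.88 unloaded and 5.96 loaded, beside array medians of 6.07 to 6.20, so both folds rest on late values close to background. Slc25a23 did not pass in any comparison of the main fits, which leave out the date code. Its 2 probe sets, chosen for mention after their values were seen, gave 0.45 and -0.44 at 9 to 14 d in unloaded legs. In loaded legs they gave 0.48 and -0.49 (limma, unadjusted p = 0.211 and 0.0236). At 5 to 8 d in unloaded legs they gave -1.02 and -1.11 (limma, unadjusted p = 0.0468 and 5.7e-04). Its values by date code are given below. Slc25a17, a carrier of peroxisomes that handles coenzyme A and related nucleotides, rose in loaded legs by 0.72 ± 0.13 at 5 to 8 d and 0.49 ± 0.12 at 9 to 14 d (limma, adjusted p = 2.77e-04 and 0.00164). Within date code 3 these loaded differences were 0.32 and 0.12, and with the code as a covariate 0.33 and 0.11, none of which passed (limma, adjusted p = 0.504, 0.678, 0.126 and 0.523). In unloaded legs Slc25a17 differed by 0.43 and 0.26 (adjusted p = 0.0527 and 0.148), and by -0.19 and -0.10 within code 3. Whether the legs differ in this was tested only as the loading terms below, where Slc25a17 did not pass.

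Of the carriers of citric acid cycle intermediates and glutamate, 5 were tested. Slc25a11, the oxoglutarate-malate carrier of the malate-aspartate shuttle, was 11.49 to 12.72 (median 12.32) early in unloaded legs, 11.31, 11.89, 11.63 and 11.77 at 5 to 8 d, and 11.63 to 12.14 (median 11.86) at 9 to 14 d. It fell by 0.61 and 0.38 on the log2 scale in unloaded legs (SE 0.16 and 0.14, limma adjusted p = 0.00642 and 0.0306) and by 0.57 and 0.39 in loaded legs (adjusted p = 0.00383 and 0.014). Within date code 3 the unloaded Slc25a11 differences were -0.31 and -0.10, and with the code as a covariate -0.33 and -0.09, none passing (limma, adjusted p = 0.31 to 0.78). The unloaded call at 9 to 14 d was also lost without rat 47, 49, 51 or 57. Slc25a22, a glutamate carrier, fell from 7.75 to 9.40 (median 8.36) to 7.58 to 8.18 (median 8.01) at 9 to 14 d in unloaded legs, a difference of -0.60 ± 0.18 (adjusted p = 0.00829). In loaded legs it fell by 0.48 ± 0.16 (limma, adjusted p = 0.0184), a call lost without rat 49. The other tested glutamate carrier, Slc25a18, the citrate carrier Slc25a1 and the dicarboxylate carrier Slc25a10 did not pass at 9 to 14 d, with log2 differences of 0.13, -0.07 and -0.05 in unloaded legs.

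In the group that carries acylcarnitines, other amino acids and glutathione, 7 were tested. Slc25a39, which imports glutathione into the matrix, was 8.97 to 9.86 (median 9.32) early in unloaded legs, 9.55, 10.11, 9.29 and 9.43 at 5 to 8 d, and 9.52 to 10.60 (median 10.03) at 9 to 14 d, with 2 of 13 early legs inside the late range. Those 2 were rats 35 and 37, at 9.86 and 9.55, with the other 11 between 8.97 and 9.42. Their loaded legs stood at 9.59 and 9.84, with the others between 8.84 and 9.37. Slc25a39 rose by 0.69 ± 0.14 (SE, 1.62-fold, limma adjusted p = 4.45e-04) in unloaded legs and 0.42 ± 0.12 (1.34-fold, adjusted p = 0.00841) in loaded legs. The loaded difference was 0.34 within date code 3, and it did not pass there or with the code as a covariate. Slc25a44, a carrier of branched-chain amino acids, fell at 9 to 14 d by 0.26 ± 0.09 in unloaded and 0.40 ± 0.08 in loaded legs (adjusted p = 0.0203 and 3.62e-04), the former call being lost without rat 59. Slc25a38, linked to glycine import for haem synthesis, fell in loaded legs at 9 to 14 d by 0.42 (limma, adjusted p = 0.019, lost without rat 59) and gave -0.37 in unloaded legs (adjusted p = 0.0528). Slc25a29, a carrier of basic amino acids, had early means of 6.04 in unloaded and 5.95 in loaded legs, below every array median, so its early level is not measured above background and no fold is given. Its log2 difference was 0.44 in loaded legs at 9 to 14 d (limma, adjusted p = 0.00408), and 0.38 within date code 3 and with the code as a covariate, neither passing (adjusted p = 0.194 and 0.072). Its value of 0.39 in unloaded legs at 5 to 8 d (adjusted p = 0.0485) was 0.07 within code 3, and the call was lost on leaving out any 1 of 14 rats (13, 15, 19, 21, 23, 27, 33, 45, 47, 49, 51, 53, 55 or 59). The carnitine-acylcarnitine carrier Slc25a20 gave -0.46 in unloaded and -0.28 in loaded legs at 9 to 14 d, and neither passed (adjusted p = 0.0731 and 0.271).

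The carriers of cofactors and iron, 7 tested, held the member with the clearest rise. Slc25a16, a carrier linked to mitochondrial coenzyme A, was 7.78 to 8.80 (median 8.46) in the early unloaded legs and 9.67, 10.42, 9.63 and 9.66 in the 4 legs at 5 to 8 d. At 9 to 14 d it was 10.38, 10.38, 9.98, 10.02, 10.03 and 9.56. Every later unloaded leg thus lay above every early one. The log2 differences were 1.43 ± 0.17 (SE, 2.69-fold, limma adjusted p = 2.9e-06) and 1.64 ± 0.15 (3.12-fold, adjusted p = 1.5e-08). In loaded legs they were 1.11 ± 0.19 (2.16-fold) and 1.33 ± 0.16 (2.52-fold, limma adjusted p = 9.5e-07). Of the 13 early loaded legs 1, that of rat 37 at 9.46, reached the range of the 5 to 8 d legs. Slc25a42, another carrier linked to coenzyme A, gave 0.25 in unloaded and -0.01 in loaded legs at 9 to 14 d, neither of which passed.

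Slc25a37 and Slc25a28 are the mitoferrins, which bring iron into the matrix. Slc25a37 rose from 6.47 to 7.35 (median 7.19) to 7.53 to 8.36 (median 7.77) at 9 to 14 d in unloaded legs, with no overlap, a log2 difference of 0.75 ± 0.15 (limma, adjusted p = 4.84e-04). In loaded legs the difference was 0.61 ± 0.12 (adjusted p = 2.64e-04). Within date code 3 the Slc25a37 differences were 0.85 in unloaded and 0.49 in loaded legs, neither passing. With the code as a covariate only the unloaded call passed. Slc25a28 gave 0.05 at 9 to 14 d in unloaded legs and 0.32 in loaded legs (limma, adjusted p = 0.0618 for the latter). Slc25a26, the S-adenosylmethionine carrier, fell from 8.63 to 9.42 (median 9.00) to 8.21 to 8.62 (median 8.51) in unloaded legs. Its differences of -0.50 ± 0.10 and, in loaded legs, -0.54 ± 0.10 had no overlap between the windows (adjusted p = 3.57e-04 and 1.23e-04). Slc25a32, a folate and flavin carrier, rose at 5 to 8 d by 0.40 in unloaded and 0.34 in loaded legs (limma, adjusted p = 0.0424 and 0.0124) and gave -0.06 and -0.19 at 9 to 14 d, neither passing. Within date code 3 the Slc25a32 differences at 5 to 8 d were 0.02 and 0.25 and with the code as a covariate 0.09 and 0.23, none passing. The unloaded call was lost on leaving out any 1 of 10 rats (11, 13, 15, 19, 21, 27, 33, 41, 53 or 55), and the loaded call without rat 53. Slc25a51, the NAD carrier, fell in loaded legs at 9 to 14 d by 0.21 (limma, adjusted p = 0.0416). That call was lost on leaving out any 1 of 13 rats (11, 13, 15, 17, 19, 21, 27, 33, 37, 49, 51, 57 or 59), and the difference was -0.16 within date code 3 and -0.15 with the covariate, neither passing.

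The last group holds relatives of the uncoupling proteins and little characterised carriers, 6 of them tested. Slc25a30, a relative of the uncoupling proteins, fell from 6.93 to 8.55 (median 7.38) to 6.49 to 7.05 (median 6.79) at 9 to 14 d in unloaded legs, by 0.79 ± 0.20 on the log2 scale (limma, adjusted p = 0.00261), and by 1.09 ± 0.25 in loaded legs (adjusted p = 0.00112). Within date code 3 the Slc25a30 differences were -0.77 and -0.95, neither passing. With the code as a covariate only the unloaded call passed. Slc25a34 and Slc25a35, close relatives of each other without an established substrate, fell by 0.81 ± 0.23 and 0.74 ± 0.21 in unloaded legs (adjusted p = 0.00714 and 0.00604) and by 0.63 and 0.69 in loaded legs (adjusted p = 0.0459 and 0.00406). Within date code 3 their unloaded differences were -0.77 and -0.52, and neither passed there or with the code as a covariate. The loaded Slc25a35 difference was -0.86 within code 3, not passing, and passed with the covariate. The loaded Slc25a34 call was lost on leaving out any 1 of 15 rats (15, 23, 27, 29, 31, 35, 37, 41, 43, 47, 49, 51, 53, 55 or 57), and within date code 3 and with the covariate its difference was -0.81 and -0.75, neither passing (limma, adjusted p = 0.24 and 0.161). Slc25a27, another uncoupling protein relative, was higher by 0.50 at 5 to 8 d (limma, adjusted p = 0.00515) and 0.34 at 9 to 14 d (adjusted p = 0.0175, lost without rat 51) in unloaded legs, but its early mean of 5.83 was below every array median and no fold is given. Within date code 3 the unloaded Slc25a27 differences were 0.42 and 0.31, and neither passed there or with the covariate. In loaded legs Slc25a27 was higher by 0.61 at 5 to 8 d (limma, adjusted p = 5.95e-04). That call was lost within date code 3 but not with the covariate. Its early loaded mean of 5.70 was also below every array median, and the loaded legs gave no Slc25a27 call at 9 to 14 d. Slc25a46, a protein of the outer membrane, and Slc25a47 gave 0.15 and -0.07 at 9 to 14 d in unloaded legs and did not pass. No member passed between 9 to 14 d and 5 to 8 d (limma, 0 of 32 in either leg, beside 0.226% of genes in each). By direction, 0.183% of genes were higher and 0.0431% lower in unloaded legs, and 0.161% and 0.0646% in loaded legs. In this comparison 4 members in unloaded and 5 in loaded legs had an unadjusted p under 0.05. The share of all genes at that unadjusted threshold is not given.

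Loading changed 2 members over all 23 rats, each by a small amount: Slc25a28 was higher and Slc25a39 lower in the loaded leg. These are 6.25% of the 32 members, beside 2.90% of all genes tested (1.08% higher and 1.82% lower). The loaded minus unloaded difference of Slc25a28, in rats 41, 43, 53 and 55 of the 5 to 8 d window, was 0.39, 0.53, 0.04 and 0.0006. At 9 to 14 d it was 0.36, 0.11, 0.50, 0.54, 0.25 and 0.18, all above 0. At 6 h to 4 d it was above 0 in 7 of 13 rats and averaged 0.05 ± 0.18 (SD). Over all rats the log2 difference was 0.15 ± 0.04 (SE, 1.11-fold, limma adjusted p = 0.0438), higher in 17 of 23 rats. Within the 9 to 14 d window it was 0.32 ± 0.08 (1.25-fold, higher in 6 of 6), which did not pass (adjusted p = 0.0724).

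For Slc25a39 the leg difference at 9 to 14 d was -0.23, -0.25, -0.54, -0.65, -0.30 and -0.12, and at 5 to 8 d it was -0.04, -0.43, -0.14 and -0.16. All 10 later rats were thus lower in the loaded leg, beside 8 of 13 early rats. The log2 difference over all rats was -0.17 ± 0.05 (SE, 1.12-fold lower, limma adjusted p = 0.0445), lower in 18 of 23 rats, and within 9 to 14 d it was -0.35 ± 0.09 (adjusted p = 0.0765). Both calls sit close to the threshold: the call was lost on leaving out any 1 of 16 rats for Slc25a28 and any 1 of 14 rats for Slc25a39, with the log2 difference between 0.12 and 0.33 for the first and -0.20 and -0.14 for the second over all alternatives. For Slc25a28 these were rats 11, 15, 17, 19, 31, 33, 35, 37, 41, 43, 45, 49, 51, 53, 57 and 59. For Slc25a39 they were rats 11, 17, 19, 29, 35, 43, 45, 47, 49, 51, 53, 55, 57 and 59.

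No member passed for loading within a window (limma, 0 of 32), beside 0% of genes at 6 h to 4 d, 0% at 5 to 8 d and 0.269% at 9 to 14 d. The members with an unadjusted p under 0.05 numbered 3, 2 and 4. The shares of genes given are at the adjusted threshold. None is given at the unadjusted one, here or in the next sentence, so these counts are not read against all genes. The change of the loading effect from 6 h to 4 d was 0.27 ± 0.10 for Slc25a28 at 9 to 14 d (limma, adjusted p = 0.565), and no member passed this comparison (0% of genes, with 2 members at an unadjusted p under 0.05) or the one at 5 to 8 d (0% of genes, with 0 members at an unadjusted p under 0.05). Slc25a42, which is described after its values were seen, had the most negative loading difference, -0.25 ± 0.08 over all rats (adjusted p = 0.0722), lower in 17 of 23 rats. At 9 to 14 d its leg differences ran from -1.42 in rat 51 to 0.06. Slc25a25 had the most positive, 0.28 ± 0.12 (limma, adjusted p = 0.197), with 1.93 in rat 27 and 1.38 in rat 11, and 10 of 13 early rats higher. Slc25a4, Slc25a3 and Slc25a5 gave 0.03, 0.01 and -0.01 with standard errors of 0.03, 0.03 and 0.06, smaller in size than their window differences above.

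**Figure D3:**
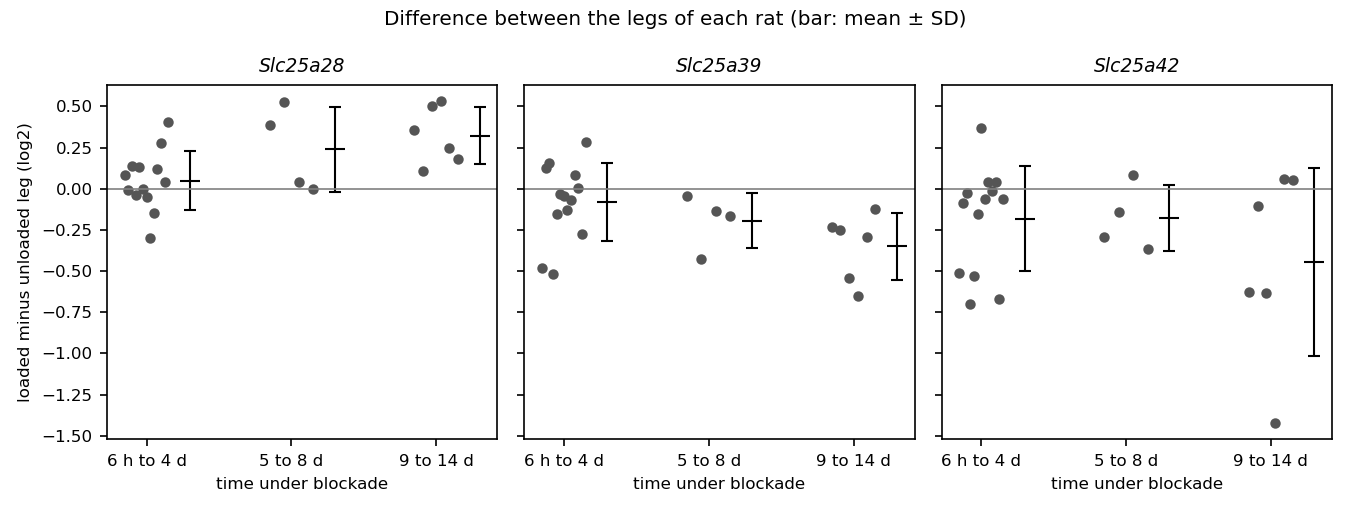
Loaded minus unloaded log2 expression (vertical axis) in each rat by window (horizontal axis) for Slc25a28, Slc25a39 and Slc25a42, with points for rats and bars beside them for the mean ± SD. All 6 rats at 9 to 14 d lie above 0 for Slc25a28 and below 0 for Slc25a39.

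The array labels carry 1 of 5 date codes, whose meaning is not stated, and only code 3 (4, 2 and 4 rats in the 3 windows) occurs in every window. Codes 1, 2 and 4 occur only at 6 h to 4 d and code 5 only in the later windows. Slc25a23 stood apart by code: at 5 to 8 d its unloaded legs were 8.97 and 10.82 in code 3 and 7.39 and 7.78 in code 5. At 9 to 14 d they were 10.50, 11.14, 11.33 and 11.07 in code 3 and 8.87 and 8.37 in code 5. Between 6 h to 4 d and 9 to 14 d, Slc25a23 differed by 1.43 in unloaded and 1.16 in loaded legs within code 3, of which the unloaded value passed (limma, adjusted p = 0.0378 and 0.145). With the code as a covariate it differed by 1.42 and 1.15, both passing (limma, adjusted p = 0.00297 and 0.0389). These Slc25a23 values are of its brighter probe set alone. The other gave -0.44 in unloaded and -0.49 in loaded legs at 9 to 14 d over all rats without the covariate. Slc25a28 at 5 to 8 d was 9.17 and 9.18 in code 3 and 10.20 and 10.33 in code 5. In loaded legs its rise of 0.46 at 5 to 8 d over 6 h to 4 d (adjusted p = 0.024) became -0.15 within code 3 and -0.06 with the code as a covariate (limma, adjusted p = 0.775 and 0.827), and the call was lost without rat 53 or 55.

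**Figure D4:**
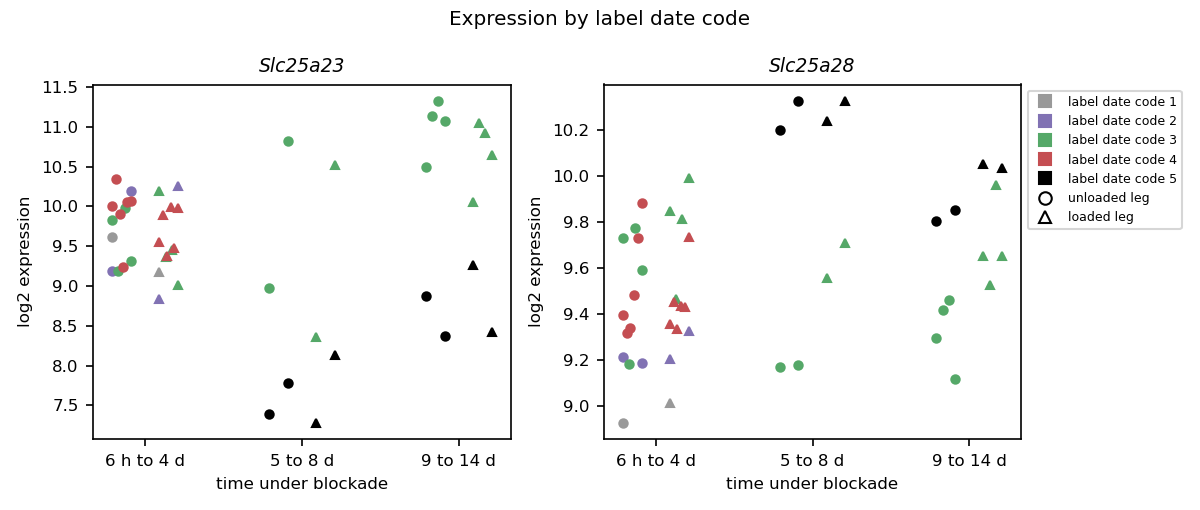
Log2 expression (vertical axes) of Slc25a23 and Slc25a28 in each leg by window (horizontal axis), coloured by the date code of the label, with circles for unloaded and triangles for loaded legs. At 5 to 8 d the code 5 legs of Slc25a23 lie at 7.28 to 8.13 and those of Slc25a28 at 10.20 to 10.33.

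Among the window changes in unloaded legs, 4 members that rose over all rats passed within code 3 as well, beside Slc25a23. Within the 8 rats of code 3 at 6 h to 4 d and 9 to 14 d, Slc25a16, Slc25a24, Slc25a5 and Slc25a39 differed by 1.75, 1.70, 1.00 and 0.79 (limma, adjusted p = 0.0038, 0.014, 0.0062 and 0.042). With the code as a covariate over all rats they differed by 1.75, 1.73, 1.10 and 0.76. For Slc25a3 the value was -0.26 within code 3 (adjusted p = 0.35) and -0.22 with the covariate (adjusted p = 0.25), and for Slc25a22 it was -0.20 and -0.16, in neither case passing. Slc25a4 gave -0.32 both ways in unloaded legs (limma, adjusted p = 0.30 and 0.11), and -0.53 and -0.54 in loaded legs, where the covariate fit passed (adjusted p = 0.0032). Slc25a25 gave -1.40 within code 3 and -1.52 with the covariate, without passing (limma, adjusted p = 0.16 and 0.063). Among the members called in loaded legs at 9 to 14 d, only Slc25a16 and Slc25a26 also passed within code 3. Code 3 alone holds 8 rats in these windows, and rats 35 and 37, described above, are 2 of its 4 early rats. Unloaded Slc25a3 stood at 12.73, 12.61, 12.08 and 12.02 in its early rats 31, 33, 35 and 37. Its mean in the late code 3 rats was 12.10. The part of rats 35 and 37 in the smaller differences within code 3 was not tested.

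Genes that work beside the carriers are given for context, from lists described by counts. The date code settings were not examined for these genes or for the cell markers further below. Of 15 partner genes, enzymes together with some regulators such as Tfam, 9 fell and 1 rose at 9 to 14 d in unloaded legs. Over all genes 16.9% were lower and 28.7% higher. The median of the 15 was -0.45, beside 0.07 over all genes. Got1 and Mdh1, the cytosolic enzymes of the malate-aspartate shuttle, fell by 1.03 and 0.97, Mdh2 and Cs of the citric acid cycle by 0.68 and 0.54, and Cpt2, which acts after the acylcarnitine carrier, by 0.79 (limma, adjusted p = 0.015, 0.013, 3.6e-05, 0.0012 and 0.0055). The 1 that rose was Tfam, which maintains mitochondrial DNA, at 0.57. Of 12 other transport genes, 5 fell and 3 rose, against the same shares. Both subunits of the pyruvate carrier, Mpc1 and Mpc2, fell by 0.69 and 0.63, and the outer membrane channels Vdac1, Vdac2 and Vdac3 by 0.29, 0.38 and 0.37. The calcium uniporter gene Mcu, its regulator Micu2 and Tspo rose by 0.69, 0.34 and 0.81.

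Of 13 genes of the import machinery that inserts carriers into the inner membrane, 6 rose and 0 fell in unloaded legs at 9 to 14 d, beside 28.7% of all genes higher and 16.9% lower. Their median was 0.23, beside 0.07 over all genes. Tomm7, a small subunit of the outer membrane translocase, rose by 0.89 ± 0.10 (limma, adjusted p = 1.6e-07), and Timm10b and Timm22, of the carrier import route, by 0.56 and 0.35. Of 4 tested family genes under other symbols, Mtch1, an outer membrane relative of the carriers, rose by 1.08 ± 0.12 (adjusted p = 2.5e-07). Ucp3, the uncoupling protein of muscle, gave -0.40 and Ucp2 0.34, and Mtch2 gave 0.17, none of which passed. Over all 23 rats, loading called 0 of the 12 transport genes, 0 of the 13 import genes and 0 of the 4 family genes. It called 1 of the 15 partner genes, Pdk4, an inhibitor of pyruvate dehydrogenase, at -0.19 (limma, adjusted p = 0.034). The share over all genes was 2.90%, so counts in lists this short say little about these genes.

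Markers of the cells in the biopsy moved with the windows too, where 28.7% of all genes were higher and 16.9% lower at 9 to 14 d in unloaded legs. The 8 myofibre markers averaged 10.52 to 14.17 over the 46 arrays, and 5 of 8 fell at 9 to 14 d in unloaded legs, their log2 summed signal going from a median of 16.64 (range 16.43 to 16.67) to 16.23 (16.15 to 16.55). Of 9 macrophage markers, Cd68, Adgre1, Csf1r and Lyz2 rose, and the summed signal went from 11.71 (10.96 to 12.11) to 12.45 (11.24 to 13.73). Of 7 fibroblast markers 2 fell, with a median sum of 13.53 early (range 12.69 to 13.91) and 13.06 late (12.76 to 13.47). Each sum follows its brightest genes, and the fibroblast sum is mostly Dcn, at a mean of 12.78 beside 9.79 for Col1a1, the next brightest. Of the remaining lists, 1 of 4 endothelial and 1 of 6 adipocyte genes fell, 1 of 3 Schwann and 1 of 4 smooth muscle genes rose, and 0 of 2 erythroid genes passed. With loading over all rats, Mfap5 was higher by 0.38 and Pi16 by 0.40, 2 of the 7 fibroblast genes beside 1.08% of all genes. The part of these shifts in the carrier results was not tested.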

How the data were processed

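The deposited table holds log2 expression values per probe set from Affymetrix arrays, made by the authors with RMA, per the submitters' processing notes; its version is not given in the sources used here. The 26208 probe sets lay between 1.92 and 14.38 on 46 arrays. Probe sets were named through the platform annotation: 15088 had 1 gene symbol, 323 several and 10797 none listed. The filter on low signal required a value above the median of the same array on 4 or more arrays, which 14834 probe sets met. Each gene was then read from its brightest remaining probe set by mean. All 37 carrier genes matched a current RefSeq symbol by Entrez ID. Tests used limma 3.58.1 in R 4.3.3 with Benjamini-Hochberg adjustment over 9289 genes and a threshold of 0.05, and were checked on simulated data. Loading was fitted over 46 arrays with the rat as a block and leg-by-window terms; windows were fitted separately in the 23 unloaded and 23 loaded legs.

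Legs were paired by label number (an odd unloaded leg with the next even loaded leg), which is inferred. The deviations of paired legs from their group means correlated above 0.1 in 21 of 23 rats (median 0.60, range -0.35 to 0.82), and 15 unloaded and 13 loaded legs correlated best with their own partner. The number of arrays limits the precision, and levels of different probe sets are not compared.

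Full statistics were given for members called for loading and for up to 8 called rises (6 existed) and 8 called falls, by size, in unloaded legs at 9 to 14 d over 6 h to 4 d. Other members given with values were picked after these were seen. The members and lists were chosen with earlier results of these data known. Alternatives were cyclic loess, no filter, array weights, another probe set, date code 3 only, date code as a covariate, 1 fit over all arrays, unpaired legs, each window's own rats, and leaving out rats.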

Additional observations from a re-analysis of the deposited data

Results flagged for a closer look

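In groups of 4 or 6 legs, 11 of 128 groups of carrier values had a lowest or highest leg that stood apart from the others by Dixon's criterion, which chance gives in about 1 group in 20. Among unloaded legs at 5 to 8 d these were Slc25a16 in leg 43 at 10.42 (nearest other 9.67), Slc25a24 in leg 41 at 7.56 (nearest 6.39) and Slc25a10 in leg 43 at 7.01. Among unloaded legs at 9 to 14 d they were Slc25a24 in leg 49 at 8.49 (nearest 7.52), Slc25a1 in leg 49 at 6.91, Slc25a29 in leg 57 at 6.76 and Slc25a44 in leg 59 at 8.23. Among loaded legs they were Slc25a16 in leg 42 at 9.30, Slc25a42 in leg 44 at 10.02 and Slc25a47 in leg 54 at 5.68 at 5 to 8 d, and Slc25a17 in leg 52 at 8.84 at 9 to 14 d. The causes were not tested.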

How the results depend on the processing

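Counts are members called. The share of all genes called in each alternative setting is not given here. A change of a count between settings is therefore not read as particular to the carriers. Over all 23 rats loading gave 2, against 0 without a filter on low values, 0 within date code 3, 0 with no replicate block (unpaired legs) and 1 without rats 17, 19, 21, 23, 27 and 51. Loading at 9 to 14 d gave 0, against 1 with cyclic loess and 1 with array weights. With array weights the unloaded legs gave 20 at 5 to 8 d over 6 h to 4 d (10 in the fit reported) and 9 at 9 to 14 d over 5 to 8 d (0 in the fit reported), and the loaded legs 1 at 9 to 14 d over 5 to 8 d, which was also 1 without rats 35 and 37 (0 in the fit reported). Within date code 3 the counts over 6 h to 4 d were 0 at 5 to 8 d and 5 at 9 to 14 d in unloaded legs, and 0 and 2 in loaded legs. This setting holds 10 rats. With the date code as a covariate they were 2 and 9 in unloaded and 5 and 9 in loaded legs. Slc25a28 in loaded legs at 5 to 8 d turned from 0.46 to -0.15 within date code 3 and -0.061 with the covariate. Leaving out 1 rat at a time gave 0 to 3 for loading over all rats, 0 to 0 at 6 h to 4 d and 5 to 8 d, 0 to 1 at 9 to 14 d and 0 to 0 for both changes of the loading effect. In unloaded legs it gave 8 to 13, 13 to 18 and 0 to 3 (9 to 14 d over 5 to 8 d last), and in loaded legs 9 to 15, 17 to 20 and 0 to 2. Called values of the named genes kept their direction and their side of the threshold in 1254 of 1393 alternatives, lost the call in 137 and turned in 2. Of the alternatives of a called window difference, 23 left out 1 rat and 8 were other settings. Taking another probe set exchanged that of Slc25a24 alone among the named genes. These totals therefore say little of the date code, within which most window calls did not pass. Apart from the settings named, the cause was not tested. Slc25a16, Slc25a24, Slc25a5 and Slc25a39 in unloaded legs and Slc25a16 and Slc25a26 in loaded legs passed at 9 to 14 d over 6 h to 4 d in every alternative run. Genes near the array medians, such as Slc25a27, are limited by signal over background.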
